A study of Mus musculus with 4 samples.

Results

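Gfap, Vim, Nes, Synm and Des encode cytoplasmic intermediate filament proteins, and they were read at the level of the gene and of each splice form in 4 RNA libraries made from adult mouse neural stem cells after sorting. The members were found by gene symbol: 5 of 32564 genes, with 20 of the transcripts listed in the deposited tables. Of these 20, 19 had an estimated count above 0 in at least 1 library, which for Nes-201 and Synm-204 rounds to 0. TPM is an abundance of transcripts corrected for transcript length and scaled to the library total. It was summed over the transcripts of a gene, and each transcript's share of that sum was taken within each library. The labels give 1 group. Its cells were sorted by flow cytometry from gfap:GFP transgenic animals, 3 months old, on a CD1/C57BL/6 mixed background, and the labels call them untreated, activated and EGFR+, with the markers Prom1+, EGFR+ and GFAP+. The design text of the series speaks of quiescent cells and of injected aCSF or miR204 antagomers instead, but the sample labels name neither agent. The labels were used, which leaves no second group to compare. If the design text were right, a treatment effect could be part of each SD and p-value. The labels do not say whether each library had its own animals, so SDs and p-values measure the spread between these samples, which may be technical.

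Intermediate filaments are ropes of coiled-coil proteins that give a cell its mechanical strength, and the set a cell makes changes with its type and stage. Gfap and Vim form filaments in astrocytes and radial glia-like stem cells, Nes is a long partner that cannot assemble alone and marks stem and progenitor cells, Synm links filaments to adhesion sites and other proteins, and Des is the filament protein of muscle and of many pericytes. Gfap is spliced into several forms that share the coiled-coil rod and differ at the tail. The alpha form is the usual one. The delta form, also called epsilon, ends in another tail that does not assemble well alone, and in the human brain it is known from astrocytes and stem cells beside the ventricle.

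The sort rested on a Gfap reporter, so that Gfap RNA is present is set by the gate and is no finding. The same holds for Egfr, a marker in the labels that is also in the list of activated stem cell markers. Gfap stood at 149 ± 54.4 TPM, Egfr at 89.7 ± 23.1 TPM and Prom1 at 23.1 ± 7.01 TPM (SD, n = 4). Depth was 16978938 to 23727664 estimated counts per library, and library 3 was the shallowest. All 8 markers of activated stem cells and all 12 markers of astrocytes and quiescent stem cells were above 1 TPM, as were 62.8% of all 19914 genes tested (limma, adjusted p under 0.05), but so were all 8 oligodendrocyte, all 8 microglia and all 8 ependymal markers. The ependymal count was 6 without library 2 or library 4 and 7 without library 3. All 8 neuroblast and 7 of 8 mature neuron markers were above it too. Their part in the members' levels was not tested. In bulk RNA, fewer cells of a type and less RNA per cell cannot be told apart.

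The alpha and delta forms of Gfap part after exon 7 of a gene on the minus strand of chr11:102887336-102900912 (GRCm38, the assembly that mm10 names; GENCODE M21). Alpha goes on with exon 8 and the coding part of its last exon. Delta goes on with a last exon of its own, which lies wholly inside the intron after exon 7 of alpha.

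Gfap-201 is the alpha form, with 430 codons in 9 exons, and Gfap-202 the delta form, with 428 codons in 8 exons. Exons 2 to 7 are identical in both, as is the coding part of exon 1, and delta is annotated to start 69 bases upstream of alpha. The alpha tail adds 131 coding bases and the delta tail 125, stop codons included. Where forms share most of their sequence, the estimate that splits their reads rests on the stretches each holds alone. Of the stretches of 31 bases in Gfap-201, the length that kallisto uses by default, 1472 of 2618 occur in no other transcript searched, and in Gfap-202 1424 of 2570. No other pair of coding forms among the members holds as much sequence of its own in both. Gfap-203, annotated as non-coding and 356 bases long, has a first exon of its own upstream and 3 exons within the span of exons 2 to 4.

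**Figure D1:**
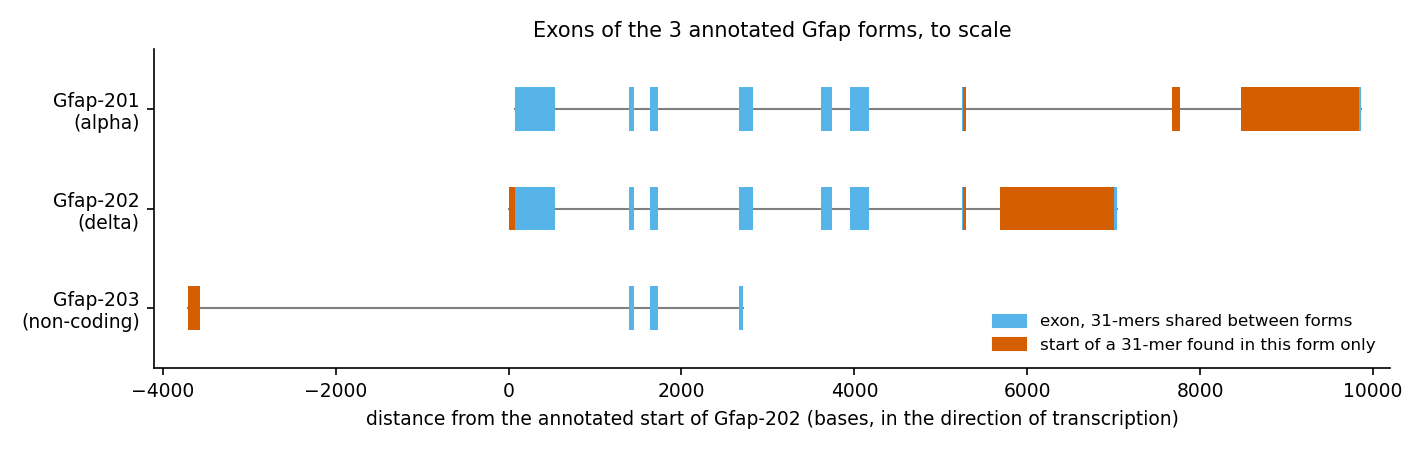
Exons of the 3 annotated Gfap forms drawn to scale; the x axis is the distance in bases from the annotated start of Gfap-202 in the direction of transcription. Orange marks where a stretch of 31 bases found in that form alone begins, and blue marks sequence shared between forms: 1472 such starts lie at the end of Gfap-201, and 1355 of the 1424 in Gfap-202 lie at its own last exon.

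Most Gfap RNA was of the alpha form in each of the 4 libraries. Gfap-201 had 100.5, 127.5, 180.3 and 94.1 TPM in libraries 1 to 4, a mean of 125.6 ± 39.2 TPM. Gfap-202 had 15.4, 17.2, 41.6 and 12.9 TPM, a mean of 21.8 ± 13.4 TPM (SD, n = 4). Library 3 was the highest in both, and the lowest alpha value exceeded the highest delta value. The delta values rest on 587, 611, 1115 and 504 estimated counts, well above the 3 counts taken as the limit of detection. Both forms were above 1 TPM (limma over all transcripts, log2 difference 5.94 with adjusted p = 2.4e-06 for alpha and 3.36 with adjusted p = 2.0e-04 for delta), as were 30.9% of all 69005 transcripts tested.

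The alpha form took 85.8, 87.0, 79.4 and 87.9% of Gfap TPM in libraries 1 to 4, a mean share of 85.0 ± 3.85%. The delta form took 13.1, 11.7, 18.3 and 12.1%, a mean share of 13.8 ± 3.07% (SD, n = 4). Library 3 held the highest delta share and the other 3 libraries lay close together. The plain ratio of alpha to delta was 6.53, 7.40, 4.33 and 7.29. On the log2(TPM + 1) scale alpha exceeded delta by 2.58 ± 0.34, or 5.97-fold, in 4 of 4 libraries (exact sign-flip permutation test, two-sided, p = 0.125, the smallest that 4 libraries allow, and 0.167 adjusted over 4 pairs of forms). Without library 3 the mean delta share was 12.3% and the log2 ratio 2.74. With estimated counts in place of TPM the mean delta share was 13.8%.

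Library 3 stood out more for delta than for alpha. Its delta level was 2.74 times the mean of the other 3 libraries, and its alpha level was 1.68 times theirs. Library 3 also held the highest share of TPM in transcripts annotated as retained introns, 4.57% against 3.16, 4.28 and 3.58% in libraries 1, 2 and 4. By estimated counts library 2 was highest, at 3.27% against 3.18% in library 3, and library 2 had the lowest delta share. The part of unspliced or partly spliced RNA in the delta share was not tested. Gfap-203 had 1.30, 1.87, 5.14 and 0 TPM, from at most 11.2 estimated counts in a library, and it passed as neither above nor below 1 TPM (limma, adjusted p = 0.60). In library 4, where it had no count, 3 counts would be 0.889 TPM.

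**Figure D2:**
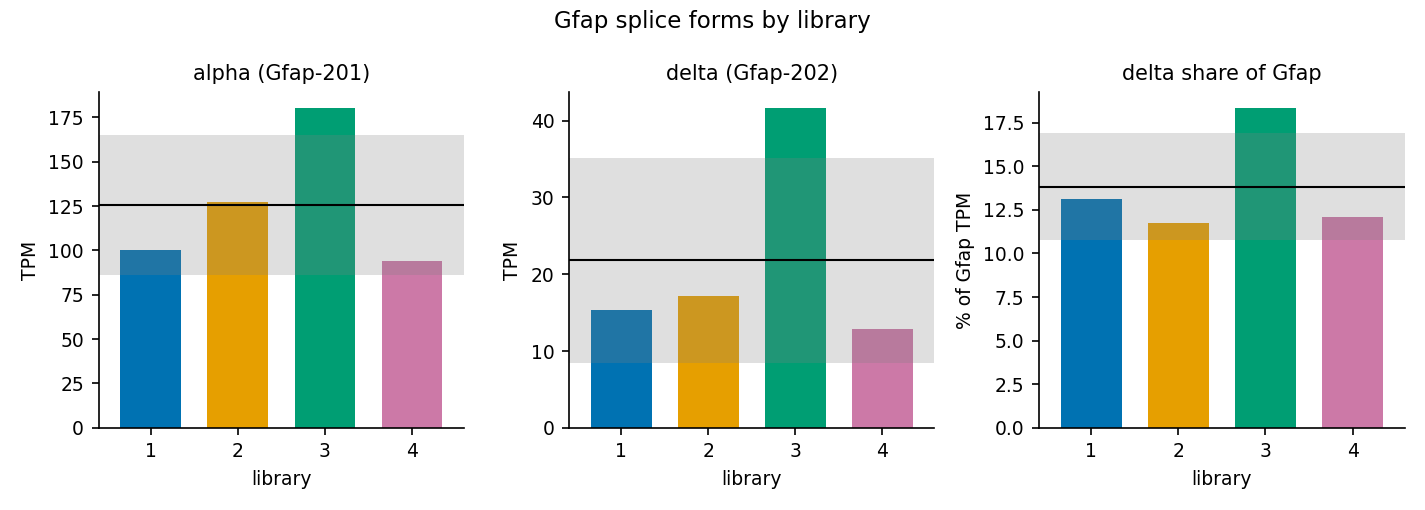
Gfap-201 (alpha) and Gfap-202 (delta) in TPM, and the delta share in percent of Gfap TPM, with a bar for each of libraries 1 to 4, a line at the mean and a grey band of 1 SD on either side. Library 3 is the highest in each panel, with 180.3 TPM for alpha, 41.6 TPM for delta and 18.3% for the delta share.

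Summed over its forms, Gfap varied more between libraries than most genes of at least 10 TPM. The gene had 117, 147, 227.1 and 107 TPM in libraries 1 to 4, from 4499, 5227, 6051 and 4250 estimated counts. Library 3 was the highest, at 1.84 times the mean of the other 3, and the mean without it was 124 TPM. Mitochondrial transcripts held 16.6, 18.4, 13.5 and 15.7% of TPM in libraries 1 to 4, the least in library 3. The comparison of libraries was not repeated after rescaling over nuclear protein-coding genes, so the part of that share was not tested. The SD of log2(TPM + 1) was 0.48, larger than that of 89.1% of the 9433 genes of at least 10 TPM, whose median SD was 0.25. Without library 3 the SD was 0.23, at the 50.9th percentile. Lists of astrocyte genes were also highest in that library in sum, though not gene by gene: the astrocyte and quiescent stem cell list summed to 9587, 7726, 10889 and 9854 TPM, and the reactive astrocyte list to 147, 152, 175 and 138 TPM. Of the 12 genes of the first list 8 were highest in library 3, 3 in library 4 and 1 in library 1, where S100b had 85.1 TPM against 64.4 TPM in library 3, its lowest. Of the 17 reactive genes with a count 6 were highest in library 3 and 7 in library 2. S100b was named after its values were seen. Their part in the level of Gfap was not tested.

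Vim, the filament protein of many migrating, dividing and immature cells, lies on the plus strand of chromosome 2 from 13573927 to 13582826. By summed TPM it was the highest member, and it was also the steadiest. It had 202.6, 212, 230.4 and 218 TPM in libraries 1 to 4, a mean of 216 ± 11.6 TPM (SD, n = 4), and the highest library was 1.14 times the lowest. The SD of log2(TPM + 1) was 0.077, larger than that of 3.03% of genes of at least 10 TPM. That percentile was 11.5 without library 2 and 10.7 without library 4.

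Vim was read as 6 forms, of which 3 are annotated as coding and 3 as retained introns. The full-length coding form is Vim-201, with 466 codons. Vim-206, with 427 codons, skips exon 8 at chr2:13581613-13581698 (GRCm38, plus strand), which shifts the frame and ends the protein soon after. The pair is shown from exon 7, at chr2:13580640-13580683, to the stop codon, in capitals the 86 bases of exon 8 that Vim-206 lacks. The last coding part begins at base 13582473 in both forms.
Vim-201: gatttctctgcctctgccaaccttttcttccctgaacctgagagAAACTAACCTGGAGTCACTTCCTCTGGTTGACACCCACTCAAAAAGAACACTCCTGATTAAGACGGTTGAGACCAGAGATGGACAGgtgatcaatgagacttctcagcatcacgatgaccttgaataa
Vim-206: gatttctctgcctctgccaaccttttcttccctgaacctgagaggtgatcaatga

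The form with exon 8 was the more abundant in 4 of 4 libraries. Vim-201 had 104, 92.4, 93.2 and 85.3 TPM in libraries 1 to 4, and Vim-206 had 41.4, 41.4, 45.1 and 47.3 TPM. The values of the forms did not overlap. The log2 ratio was 1.08 ± 0.20, or 2.11-fold (SD, n = 4; exact sign-flip permutation test, two-sided, p = 0.125, adjusted 0.167). These were the highest coding forms by level, so the direction is a description. Of the stretches of 31 bases searched, 28 belong to Vim-206 alone and 273 to Vim-201 alone. Of the 273, 250 begin in exon 1, before the annotated start of Vim-206, and 22 begin in exon 8. Exon 8 is also shared with Vim-203.

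Transcripts annotated as retained introns took 28.2, 36.0, 40.0 and 39.2% of Vim TPM in libraries 1 to 4, lowest in library 1. Vim-203, which is 535 bases long, held most of that, with 52.9, 57.8, 57.8 and 62.0 TPM and a steady share of 26.7 ± 1.44%. Vim-204 had 2.53, 15.3, 33.5 and 22.5 TPM and was far lower in library 1 than in the others. TPM divides by length, so few reads give a short transcript a high TPM: the share of Vim-201 was 43.6 ± 5.52% of Vim TPM, but 63.0% of its estimated counts and 67.8% of the TPM of its coding forms. The coding forms of Vim together had 145.6, 135.8, 138.2 and 132.6 TPM, a mean of 138 ± 5.52 TPM. Vim-205, a single retained-intron exon, had a mean of 1.73 ± 1.09 TPM, and Vim-202, a short coding fragment, was seen in library 2 alone, at 2.03 TPM.

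Vim was the higher and Gfap the lower in each of the 4 libraries, but the order rested on what was summed. The log2 ratio of Vim over Gfap was 0.59 ± 0.43, or 1.5-fold (SD, n = 4; exact sign-flip permutation test, p = 0.125, adjusted over 10 pairs 0.139), and it turned to -0.035 with coding transcripts only, -0.37 with the most abundant transcript of each gene and -0.21 without length correction. In library 3 the genes stood at 230.4 and 227.1 TPM, nearly level. In library 4 Vim was at 218 TPM and Gfap at 107 TPM. The coding forms of Gfap had 115.9, 144.7, 222.0 and 107.0 TPM, which overlap those of Vim.

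**Figure D3:**
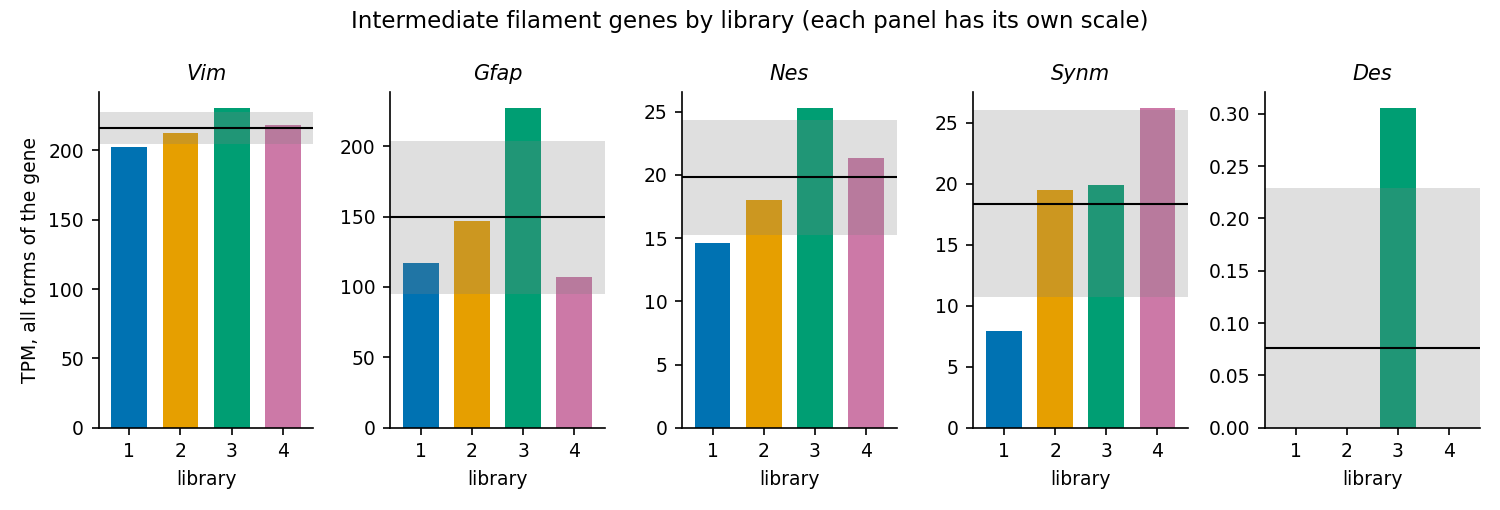
TPM of Gfap, Vim, Nes, Synm and Des, each on its own axis, with a bar for each of libraries 1 to 4, a line at the mean and a grey band of 1 SD on either side. Vim is nearly level (202.6 to 230.4 TPM), Gfap is highest in library 3 (227.1 TPM), Synm lowest in library 1 (7.90 TPM), and Des appears in library 3 only (0.305 TPM).

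Gfap, Vim and Des, all of the type III class, also share a gene structure that the choice of members did not use. Their coding exons 2 to 7, which encode most of the rod, have the same 6 lengths in the reference, 710 bases in all. Over these bases Gfap is 66.3% identical to Vim and 68.9% to Des, and Vim is 73.4% identical to Des. Exon 8, which alpha Gfap keeps and delta lacks, is 86 bases long in Gfap and in Vim, with 58.1% identity. No stretch of 31 bases was shared between members, while Vim shared 9 with the keratin gene Krt75 and a form of Synm at most 57 with Pitpnm1 and Ttc23.

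Nes, on the plus strand of chromosome 3 from 87971078 to 87980451, encodes nestin, a very long protein that pairs with vimentin. Nes had 14.6, 18.0, 25.3 and 21.3 TPM in libraries 1 to 4, a mean of 19.8 ± 4.56 TPM (SD, n = 4). Library 3 was again the highest, and the values lay within 1.73-fold of each other. Vim exceeded Nes 10.6-fold and Gfap exceeded it 7.05-fold, each in 4 of 4 libraries (exact sign-flip permutation test, p = 0.125, adjusted 0.139). The lowest of the 4 ratios was 8.80 for Vim and 4.85 for Gfap. On the log2 scale the ratio was 3.41 for Vim over Nes, and 1.85 to 3.50 over the alternatives run. For Gfap over Nes it was 2.82, and 2.06 to 3.34 over the alternatives.

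The coding RNA of Nes was assigned to Nes-203, of 1820 codons, at 10.3, 13.4, 14.8 and 14.2 TPM. Nes-201, of 1864 codons, had no count that rounds above 0 in any library. The coding parts of these forms differ by 132 bases, or 44 codons, which Nes-203 lacks. Those bases are a copy in a tandem repeat that is 130 of 132 bases identical to the next copy. Both copies are shown (GRCm38, plus strand), repeat 1 at chr3:87976581-87976712 and repeat 2 at chr3:87976713-87976844, with the 2 differing bases in capitals.
Nes repeat 1: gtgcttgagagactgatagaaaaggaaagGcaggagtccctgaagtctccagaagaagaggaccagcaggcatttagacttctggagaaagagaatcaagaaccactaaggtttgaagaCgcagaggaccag
Nes repeat 2: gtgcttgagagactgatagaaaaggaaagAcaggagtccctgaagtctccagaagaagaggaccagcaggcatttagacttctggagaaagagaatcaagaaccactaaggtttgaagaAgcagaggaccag

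The full-length form holds 62 stretches of 31 bases of its own and Nes-203 holds none, so a read is given to Nes-201 alone only where it crosses those few bases. At 3 counts the limit for Nes-201 was 0.0322, 0.0346, 0.0458 and 0.0315 TPM in libraries 1 to 4. The retained-intron form Nes-202 had 4.34, 4.59, 10.4 and 7.09 TPM, 25.5 to 41.3% of Nes TPM, highest in library 3. By estimated counts Nes-203 held 91.1% of the gene, against 67.6 ± 6.71% by TPM.

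Synm, on the minus strand of chromosome 7 from 67730160 to 67759742, encodes synemin, which binds vimentin or desmin and tethers filaments to other proteins. It had 7.90, 19.5, 19.9 and 26.2 TPM in libraries 1 to 4, a mean of 18.4 ± 7.63 TPM (SD, n = 4). Library 1 was far below the others, at 0.361 of their mean of 21.9 TPM. The SD of log2(TPM + 1) was 0.70, larger than that of 97.2% of genes of at least 10 TPM, but 0.23 without library 1, at the 48.3rd percentile.

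Of the 8 lists of other cell types, library 1 had the lowest sum in 4, the endothelial list included, and the highest in the other 4, the striated muscle list included. The microglia list summed to 112, 279, 386 and 373 TPM, the oligodendrocyte list to 2515, 3661, 3316 and 4343 TPM and the ependymal list to 601, 1211, 795 and 997 TPM in libraries 1 to 4. Of the 8 genes in each list, 7, 6 and 7 were lowest in library 1. Library 1 held the highest neuroblast sum, 579 TPM, against 428, 409 and 373 TPM, the highest mature neuron sum, 1334 TPM, against 1089, 1079 and 1115 TPM, and narrowly the highest mural sum, 117.3 TPM, against 117.1, 104.6 and 83.5 TPM. The part of these in the level of Synm was not tested. Nes and Synm could not be put in order: the log2 ratio of Nes over Synm was 0.19 ± 0.49 and positive in 2 of 4 libraries (exact sign-flip permutation test, p = 0.625), and it turned to -0.35 with coding transcripts only and -0.023 without library 1. Vim exceeded Synm 12.1-fold and Gfap exceeded it 8.02-fold, each in 4 of 4 libraries (exact sign-flip permutation test, p = 0.125, adjusted 0.139). On the log2 scale the ratio was 3.59 for Vim over Synm, and 2.17 to 3.79 over the alternatives run. For Gfap over Synm it was 3.00, and 2.38 to 3.99 over the alternatives.

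All 5 forms of Synm are annotated as coding, and their mix varied between libraries: the share of Synm-201 had an SD of 21.7 percentage points, against 3.85 for Gfap-201, 5.52 for Vim-201 and 6.71 for Nes-203. Synm-205, of 674 codons, had 1.69, 8.31, 9.20 and 12.9 TPM in libraries 1 to 4. Synm-203, of 817 codons, had 1.77, 5.02, 8.64 and 9.55 TPM. Both were lowest in library 1. Synm-201, of 1259 codons, had 4.19, 5.29, 0.507 and 3.70 TPM, and it was lowest in library 3 instead. It led in library 1 with 53.1% of Synm TPM and held 2.55% in library 3.

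The coding parts of Synm-201 and Synm-202 differ by 906 bases, or 302 codons, that Synm-201 lacks. This is the difference between the forms known as synemin M and H. Synm-202, of 1561 codons, had 0.244, 0.882, 1.57 and 0.0499 TPM. Among the alternatives run, Synm-201 passed as above 1 TPM only without library 3 (log2 difference 0.96 with adjusted p = 0.093 in all 4 libraries, 1.42 with adjusted p = 0.0070 without it, limma). Synm-202 passed in neither direction, except as below 5 TPM when that level was used (log2 difference -1.92, adjusted p = 0.0016, limma). Synm-204, a form of 371 codons, was at or near 0. The log2 ratio of Synm-205 over Synm-203 was 0.27 ± 0.31, higher in 3 of 4 libraries (exact sign-flip permutation test, p = 0.25), and it turned to -0.050 with estimated counts. Apart from Synm-202, with 942 stretches of 31 bases of its own, the forms held 27 to 65 each, so little sequence tells them apart.

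**Figure D4:**
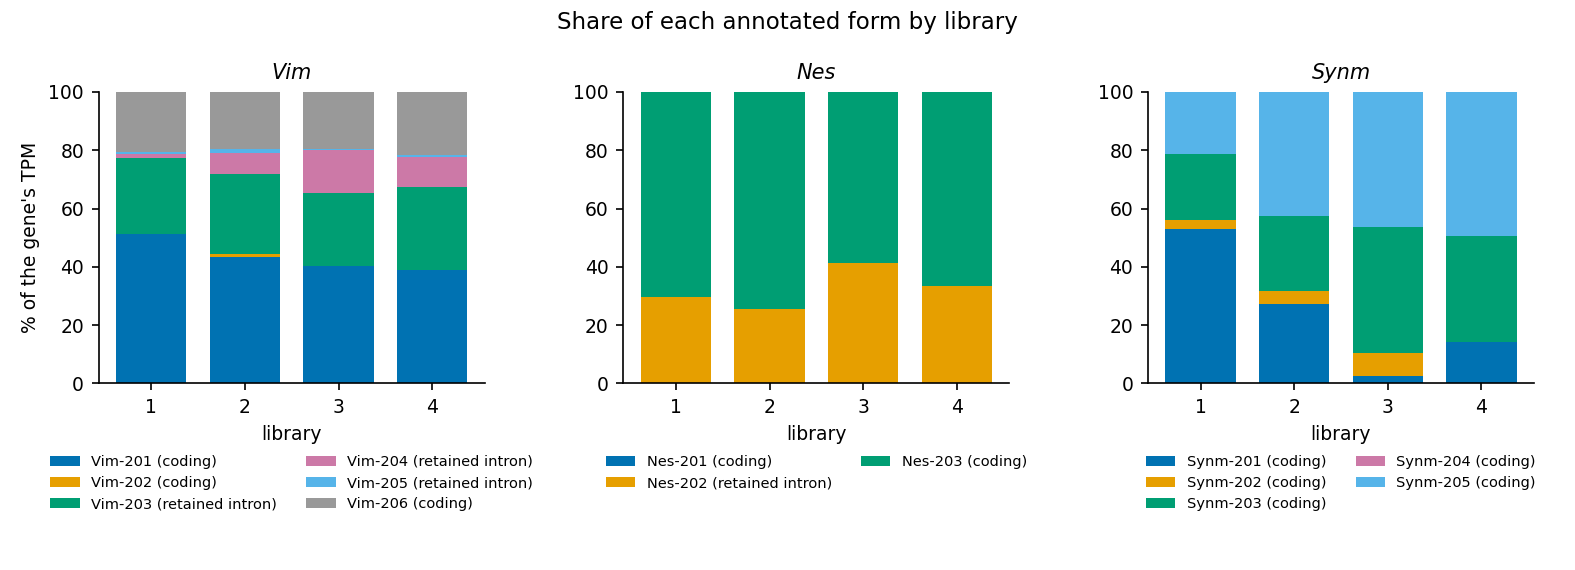
Share of each annotated transcript in its gene's TPM, in percent, as stacked bars for libraries 1 to 4 of Vim, Nes and Synm. Vim-203 holds 25.1 to 28.4% in each library, while Synm-201 runs between 2.55 and 53.1%.

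Des, on the plus strand of chromosome 1 from 75360329 to 75368579, was barely detected. It had 6 estimated counts in library 3, or 0.305 TPM, and none in libraries 1, 2 and 4. Of these counts 5 were given to the coding form Des-201 and 1 to the retained-intron form Des-203, and Des-202 was at 0 in every library. At 3 counts the limit for Des-201 was 0.067, 0.072 and 0.0654 TPM in libraries 1, 2 and 4. No fold over the other members is given, because Des was at 0 in 3 of 4 libraries.

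Markers were read for mural and muscle cells, which carry desmin elsewhere, and for endothelial cells. The counts stand beside 62.8% above 1 TPM and 23.2% below of all genes tested. Of 10 mural and smooth muscle markers tested 6 were above 1 TPM and 4 below, led by Myl9 (44.6 ± 14.1 TPM), Pdgfrb (31.8 ± 8.59 TPM) and Acta2 (15.0 ± 11.6 TPM). The pericyte channel gene Kcnj8 and the pericyte gene Vtn were at 0 in every library. Of 8 striated muscle markers 1 was above 1 TPM, the actin gene Acta1 (2.90 ± 1.29 TPM), 5 were below and 2 passed in neither direction. The call of Acta1 was lost without library 1 (log2 difference 0.71) or library 2 (0.86). Of 7 endothelial markers tested only Pecam1 (3.87 ± 0.37 TPM) was above, 5 were below, and Cdh5 was at 0 in every library. Of those below, Ly6c1 lost its call without library 3 or library 4 (log2 difference -0.47 each). It also lost it after rescaling over nuclear protein-coding genes (-0.49) and with edgeR (-1.41). Pecam1 turned to a log2 difference of -0.61 with coding transcripts only. At a level of 5 TPM the mural count above was 3, and the striated muscle and endothelial counts were 0.

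Against a level of 1 TPM, 4 of the 5 members were above and Des was below (limma, adjusted p under 0.05). The call of Gfap was set by the sort and is no finding. Of all 19914 genes tested 62.8% were above, 23.2% below and 13.9% in neither direction, and the median gene stood at 7.90 TPM. The log2 difference from 1 TPM was 6.76 for Vim (SE 0.061, adjusted p = 1.0e-08), 6.17 for Gfap (SE 0.18, adjusted p = 3.1e-07), 3.35 for Nes (SE 0.15, adjusted p = 2.7e-06) and 3.17 for Synm (SE 0.28, adjusted p = 5.9e-05). For Des it was -0.90 (SE 0.086, adjusted p = 9.6e-05), and the call was lost with edgeR's quasi-likelihood test (-3.73, adjusted p = 0.067). Of the 19 member transcripts tested 10 were above 1 TPM, 4 below and 5 in neither direction, beside 30.9% above, 29.1% below and 40.1% in neither direction of all 69005 transcripts tested. Those below were Nes-201, Synm-204, Des-201 and Des-203. The estimated counts of Nes-201 and Synm-204 round to 0 in every library. Together the members summed to 342, 396, 503 and 373 TPM, of which Vim held 54.3 ± 6.18% and Gfap 36.3 ± 6.84% (SD, n = 4).

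Other filament genes stood lower than Gfap and Vim. Of 6 further neural and muscle filament genes 4 were above 1 TPM, 1 below and 1 in neither direction. The neurofilament genes Nefl (40.9 ± 7.16 TPM), Nefm (6.74 ± 1.30 TPM) and Nefh (2.69 ± 1.04 TPM) and the internexin gene Ina (12.8 ± 3.87 TPM) were above, Sync (1.5 ± 0.26 TPM) passed in neither direction and Prph (0.295 ± 0.42 TPM) was below. With edgeR's quasi-likelihood test Prph lost its call (adjusted p = 0.22), as did Krt19 (0.14), Syne3 (0.105), Capn1 (0.065) and Ppl (0.055). Each is given as below here or among the partners. The call of Nefh was lost without library 2 (log2 difference 0.67). Of 5 keratin genes Krt10 (35.4 ± 9.54 TPM), Krt8 (7.83 ± 3.51 TPM) and Krt18 (5.05 ± 3.68 TPM) were above, and Krt7 (0.187 TPM) and Krt19 (0.156 TPM) below. Krt18 lost its call without library 2, 3 or 4 (log2 difference 1.01, 1.38 and 1.30). The lens filament genes Bfsp1 (1.42 ± 1.19 TPM) and Bfsp2 (1.72 ± 1.93 TPM) passed in neither direction.

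Partners that hold, fold or modify filaments are given beside the 62.8% of all genes that were above 1 TPM. Of 8 genes of the nuclear lamina and its anchors 7 were above, led by the lamin gene Lmnb1 (77.0 ± 16.3 TPM), Sun1 (57.0 ± 14.4 TPM) and the lamin B receptor Lbr (50.8 ± 9.06 TPM), and Syne3 (0.147 TPM) was below. Of 5 cytolinkers tested the giant linkers Macf1 (35.0 ± 3.41 TPM), Dst (22.5 ± 6.06 TPM) and Plec (21.5 ± 3.35 TPM) were above. Ppl (0.118 TPM) was below and 1 passed in neither direction, and Dsp, of desmosomes, was at 0 in every library. All 5 filament chaperones were above: Hspa8 (938 ± 157 TPM), Dnajb6 (135 ± 15.0 TPM), Cryab (118 ± 43.6 TPM), Hspb1 (23.5 ± 19.1 TPM) and Hspb8 (10.4 ± 4.84 TPM). Hspb1 had 13.5, 19.1, 51.6 and 9.93 TPM, highest in library 3 as Gfap was. It was singled out after its values were seen. Of the 5 chaperones 3 were highest in library 3, 1 in library 1 and 1 in library 4. Of 12 kinases, proteases and other modifiers 10 were above, led by the protease Capn2 (131 ± 16.8 TPM) and the mitotic kinases Cdk1 (124 ± 18.5 TPM) and Aurkb (67.2 ± 29.1 TPM), and Capn1 (0.222 TPM) was below.

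Genes that act on Gfap transcription were above 1 TPM for 13 of 14, beside 62.8% of all genes tested, with a list median of 84.1 TPM beside the 7.90 TPM of the median gene. The nuclear factor I genes Nfix (299 ± 85.4 TPM), Nfia (245 ± 30.6 TPM) and Nfib (140 ± 5.44 TPM), which bind the Gfap promoter, stood highest. The oncostatin receptor gene Osmr (0.355 ± 0.43 TPM) was below, a call that was lost without library 1 or library 4 (log2 difference -0.49 each), after rescaling over nuclear protein-coding genes (-0.52) and with edgeR (-1.49). Of the 14 genes 7 were highest in library 3, among them Stat3, the cytokine-driven activator of Gfap, with 53.8, 37.5, 95.9 and 63.8 TPM, and the receptor gene Lifr was lowest there, with 2.29, 1.76, 1.72 and 2.52 TPM. Stat3 and Lifr were named after their values were seen. Of 17 reactive astrocyte genes tested 8 were above, 5 below and 4 in neither direction. The list median of 1.22 TPM covers all 19 listed genes, 2 of them untested and at 0 in every library. The 7.90 TPM of the median gene covers tested genes only. Serpina3n (59.5 ± 8.86 TPM), B3gnt5 (24.2 ± 2.39 TPM) and Ptx3 (21.8 ± 7.15 TPM) led that list, and Lcn2 and Steap4, strongly induced in injured astrocytes, were at 0 in every library.

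**Figure D5:**
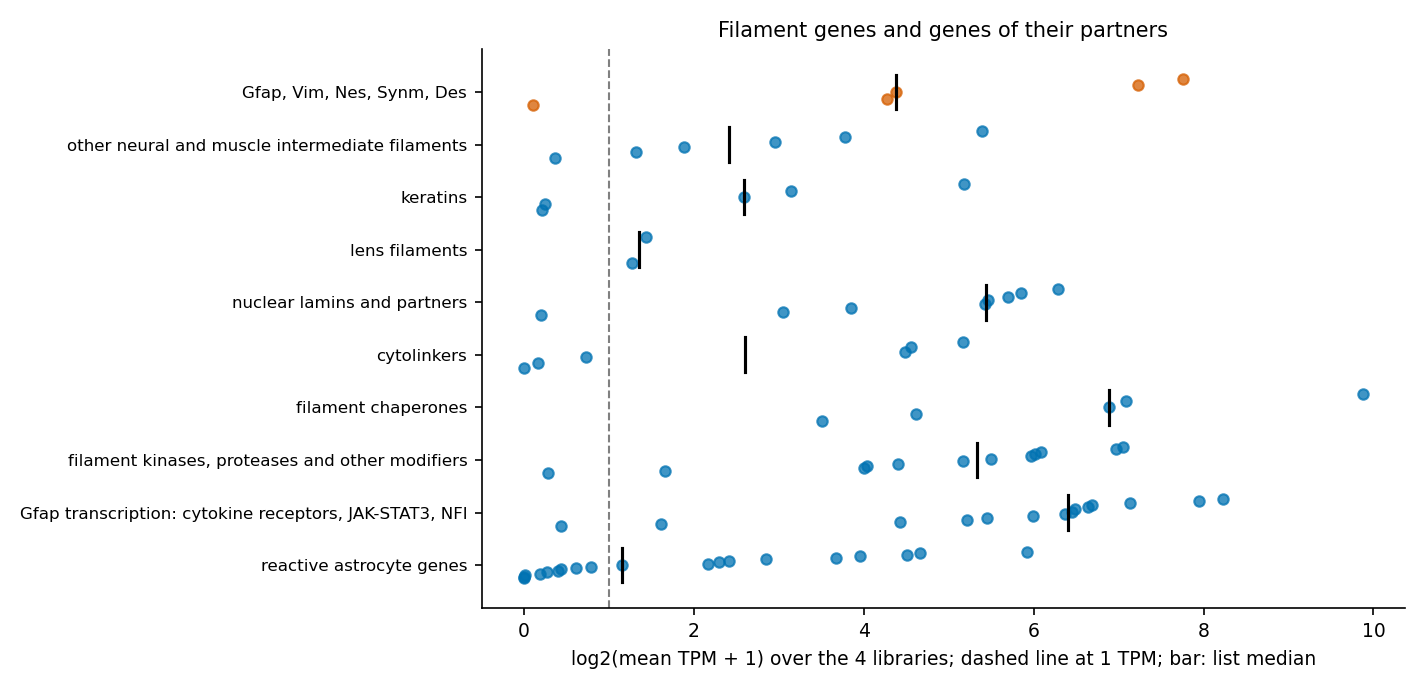
Mean level of each gene in the member list and in 9 lists of filament and partner genes, as log2(mean TPM + 1) over the 4 libraries, with a dashed line at 1 TPM and a bar at each list's median. Filament chaperones (median 118 TPM) and genes of Gfap transcription (median 84.1 TPM) lie highest, and reactive astrocyte genes (median 1.22 TPM) spread on both sides of the line.

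The genes whose pattern over the 4 libraries was most like each member's were found by the smallest root mean square difference of log2 deviations from their own mean, among genes of at least 10 TPM. With 4 libraries shared by all genes, such a likeness is a description. For Gfap they were Trmu (0.029), Usp42 (0.043), Gm15280 (0.045) and Lss (0.046), beside a median of 0.43 over 9432 candidates. For Vim they were Nab2, Rhot2, Fzr1 and Yif1a (0.013 to 0.019, median 0.21). For Nes they were Zswim1, Pex13, Dhx33 and 1810030O07Rik (0.015 to 0.035, median 0.31), and for Synm Zfp704, P4ha3, Prps2 and Enpp2 (0.032 to 0.063, median 0.62). None is given for Des, whose pattern is 6 counts in library 3.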

How the data were processed

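RNA was extracted from sorted cells with a kit for very small samples, amplified with SMART-Seq v4 and sequenced in pairs on an Illumina HiSeq, per the labels' protocols. The submitters' processing notes name kallisto, sleuth and the build mm10; the sources used here give neither versions nor the transcript release. Per the file headers, the deposited tables list, for each of 99567 transcripts, its length, effective length, TPM and estimated count. The authors' estimated counts divide reads shared between transcripts by estimate, and the deposited TPM divides them by effective length and scales to the library total. Amplified reads carry no molecular identifiers in the labels, so limits at 3 counts cover counting error only.

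Identifiers were matched without version to GENCODE M21: 98294 matched, 92612 with the same version, and 1273 were left out. TPM was summed per gene. Log2(TPM + 1) was tested against its value at 1 TPM over all 19914 genes, or 69005 transcripts, with a count in any library (limma with a trend; two-sided; called at a Benjamini-Hochberg adjusted p under 0.05); simulated data with known levels were used to check it. Pairs within libraries were tested by exact sign-flip permutation, over 10 pairs of genes and 4 pairs of forms; with 16 sign flips p cannot go below 0.125. The Gfap sequences are not reported here. Unique stretches of 31 bases were counted over 92524 transcripts with a sequence. Members and gene lists were chosen with earlier results of these data known. Genes named were all members and their transcripts, the 3 highest and the lowest of each list by mean TPM, every gene of lists of 6 or fewer, and the 4 most alike per member; from lists of other cell types only the values that touch a member are printed. Eppk1, a listed cytolinker, was not analysed here. Library numbers follow the order of the labels and only name the libraries.

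Alternatives were a pseudocount of 0.1, at least 5 mean estimated counts, a level of 5 TPM, rescaling over nuclear protein-coding genes, TMM and DESeq2 size factors, edgeR's quasi-likelihood F statistic computed for the mean against 1 TPM on rounded counts, coding or most abundant transcripts only, no length correction, and each library left out. Tables were handled in Python 3.11.15 (numpy 2.4.6, pandas 2.3.3, matplotlib 3.10.9). Models were fitted in R 4.3.3 (DESeq2 1.42.0, edgeR 4.0.16, limma 3.58.1).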

Additional observations from a re-analysis of the deposited data

Results flagged for a closer look

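Of 51 sets of 4 library values (22 of levels and 15 of shares of the members and their forms, and 14 of log2 ratios between them), 6 had a library whose gap to its nearest neighbour, divided by the whole range, exceeded Dixon's critical value. Chance alone flags about 1 in 20 sets, and sets that hardly varied were not tested. Gfap-202, the delta form, was high in library 3 at 41.6 TPM, with a gap ratio of 0.850; the values of other transcripts that moved with library 3 stand beside the delta share in the report. The other 5 rest on a library with a few counts and 3 libraries at 0: Des at 0.305 TPM, Des-201 at 0.159 TPM and Des-203 at 0.147 TPM in library 3, and Vim-202 at 2.03 TPM, a share of 0.957% of Vim TPM, in library 2.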

How the results depend on the processing

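The alpha form of Gfap exceeded the delta form under every alternative run, with a log2 ratio between 2.50 and 2.74 and a mean delta share between 12.3 and 14.5%. The 4 members above 1 TPM stayed above under all alternatives. The log2 ratio of Vim over Gfap turned to -0.21 without length correction, -0.035 with coding transcripts only and -0.37 with the most abundant transcript only. That of Nes over Synm turned to -0.35 with coding transcripts only and ranged from -0.023 to 0.34 with a library left out, and that of Synm-205 over Synm-203 to -0.050 with estimated counts. The share of Vim-201 was 63.0% by counts and 67.8% of coding forms, that of Nes-203 91.1 and 100%, and that of Synm-205 27.2% by counts; counts weigh long forms more, and the second denominator leaves out retained introns. Member forms above the level were 6 at 5 TPM. Genes below were 949 with at least 5 mean counts, 7528 at 5 TPM, 1838 with edgeR and 2773 with coding transcripts only, beside 4628. Transcripts above were 12590 at 5 TPM, beside 21289, and transcripts below 4584 with at least 5 mean counts and 43688 at 5 TPM, beside 20062. The percentile of the SD of Vim was 1.26 with TMM and 1.35 with DESeq2 size factors. With a library left out, the SD ranged from 0.23 to 0.59 for Gfap, 0.23 to 0.84 for Synm and 0 to 0.22 for Des, and its percentile from 50.9 to 93.1 for Gfap, 48.3 to 98.0 for Synm, 4.02 to 11.5 for Vim and 0 to 47.5 for Des. At 5 TPM the log2 difference of single genes turned to -0.75 for Nefh, -0.30 for Pecam1, -0.85 for Dnah5, -0.22 for Krt18 and -0.68 for Acta1, and that of Pecam1 to -0.61 with coding transcripts only. No paired analysis was possible because the labels give 1 group. The 4 libraries cannot bring an exact p under 0.125.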
